A study of Danio rerio with 4 samples.

Results

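The zebrafish genes *kdm5c*, *jmjd6* and *h3f3d*, whose products form chromatin or act on it or on other nuclear proteins, each give their name to a Hif-1α binding site that the study took forward to ChIP-qPCR. The study named each site after the closest gene, and the distances to the genes were not analysed here. Peaks belonged to these loci when their nearest edge lay within 50 kb of the ChIP-qPCR region of the gene. This gave 5 of the 6457 peaks in the 2 deposited lists, namely 1 at *kdm5c*, 1 at *jmjd6* and 3 at *h3f3d*. All 5 came from the *vhl* mutant list, which holds 5177 peaks, and none from the wild-type list, which holds 1280. The study chose the ChIP-qPCR regions among its *vhl* peaks, so a *vhl* peak at each region follows from that choice.

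*kdm5c* encodes a JmjC-domain demethylase that, in mammals, removes methyl groups from lysine 4 of histone H3. *jmjd6* encodes a nuclear JmjC-domain protein that, in human cells, hydroxylates lysines of splicing factors. Both enzyme families need molecular oxygen, iron and 2-oxoglutarate, as do the prolyl hydroxylases that mark HIF for recognition by pVHL, the product of *vhl*. *h3f3d* encodes an H3.3-type histone, a variant that enters chromatin independently of DNA replication. HIF is a dimer of an oxygen-regulated α subunit, such as Hif-1α, and a stable β subunit, and it binds hypoxia response elements with the core RCGTG, in which R is A or G.

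Hif-1α was immunoprecipitated from pools of whole de-yolked embryos at 4 days post fertilisation, raised at 28 °C, with 1 ChIP library and 1 input library for each genotype (4 libraries). The strain is given as a TL/LWT mix for both genotypes. The mutants were *vhl* hu2117 homozygotes that carried a *phd3*:gfp reporter transgene and were sorted by its fluorescence, while the wild-type group is described by its genotype and strain alone. The antibody was a custom antiserum against fish Hif-1α. Whole embryos were used, so the values average over all cell types, and binding in few cells cannot be told apart from weak binding in many. With no replicate library, differences between the genotypes and between loci carry no replicate error, and the intervals below cover counting error only.

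The *vhl* ChIP library entered peak calling with 16145214 tags, that is reads kept at 1 per position, and the wild-type ChIP library with 7554444, a ratio of 2.14. The peak caller modelled fragments of 110 bp in *vhl* and of 34 bp in wild-type, the latter shorter than the reads of 35 bp. Across all wild-type peaks the median FDR came to 48.9%, and across all *vhl* peaks to 0.31%. Overlaps with wild-type peaks and distances to them, given below, therefore rest on calls that often carry a high FDR. Which of these calls are false was not tested. The wild-type peaks held a median of 7 tags and the *vhl* peaks a median of 47.

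The ChIP-qPCR primers of these regions are shown here as the study lists them. The regions were taken from the gene names and coordinates given beside the primers, and no primer was aligned to the genome. Capitals mark ACGTG or GCGTG, the 2 forms of RCGTG, or their reverse complements CACGT and CACGC, so that both strands were searched.
*kdm5c* forward: gccactagttgtcgctaccc
*kdm5c* reverse: aaACGTGgtctgcatatcgt
*jmjd6* forward: cgacgcctgtcgttgtagtt
*jmjd6* reverse: tctttggaccctcggtagtg
*h3f3d* forward: gttcttgggcgccatgtt
*h3f3d* reverse: ccatctcaggatgagacacaga
*jmjd6* control forward: gttcagcgattccctctgct
*jmjd6* control reverse: gcggtgcaaactaacaggaa
The *kdm5c* reverse primer holds ACGTG from base 3 on, and the other primers of the loci hold none of the 4 forms. Of all 48 primers in the study's list, 3 (6.25%) hold one. A primer covers only a few bases at the edge of its product, and the sequence between the primers was not analysed here.

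In Zv9, the ChIP-qPCR regions lie at chr8:38095380-38095480 for *kdm5c*, at chr3:61204924-61205023 for *jmjd6* and at chr24:39192187-39192287 for *h3f3d*. In each case 1 *vhl* peak covered the region, and its summit fell within 1.5 bp of the centre of the region. The regions are thus windows around the summits of the called peaks, chosen by the study among highly significant peaks with a hypoxia response element. High scores at these 3 main peaks are therefore a consequence of the choice, and are given as a description.

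The main peak at *kdm5c*, the histone demethylase gene, spanned 1180 bp (chr8:38095115-38096294) with its summit at 38095429. It held 731 tags (exact Poisson 95% interval 679 to 786), or 45.3 tags per 1000000 tags kept. Its fold enrichment over the local background was 156, its FDR was 0, and its score, 10 times the negative log10 of the p-value, was 3100. The score of 3100 is the highest in the list, where the score is capped, and was shared by 8 peaks. The score therefore does not order these 8. Among these 8 the *kdm5c* peak took place 3 by tags and place 6 by fold enrichment. On chromosome 8 it ranked first of 197 *vhl* peaks by score and by tags, and 4 by fold enrichment.

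Per kb of peak, *kdm5c* held 619.5 tags (interval 575 to 666), the largest value among the 5177 *vhl* peaks, where the median was 82.3. The next peak in that order, on chromosome 4, held 576.5 tags per kb (interval 518 to 639). The intervals of the 2 peaks overlap, and whether the counts resolve their order was not tested.

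The main peak at *jmjd6*, the gene of the JmjC lysyl hydroxylase, spanned 1416 bp (chr3:61204405-61205820) with its summit at 61204972. It held 330 tags (interval 295 to 368), or 20.4 tags per 1000000 tags kept. Its score of 1313 ranked 104 in the list and its FDR was 0. Of the 3 main peaks it had the fewest tags but the largest fold enrichment, at 188. By fold enrichment it ranked 52 of all *vhl* peaks and 2 of the 266 on chromosome 3.

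The ratio of tags per kb to fold enrichment sets the tags along a whole peak against its enrichment over the local background. It therefore changes with the local background as well as with the spread of tags along the peak. The share of each was not analysed here. At *jmjd6* this ratio was 1.24, against a median of 2.96 over the *vhl* list, and lay at percentile 0.261. At *h3f3d* it was 1.94 (percentile 8.88). At *kdm5c* it was 3.96 (percentile 83.4), so *jmjd6* lay near the lowest value of the list and *kdm5c* above its median. The other ChIP-qPCR regions of the study had a median ratio of 1.97 and a range of 1.20 (*p4ha1b*) to 6.43 (*egln3*), so *jmjd6* at place 20 of 21 was not apart from them. *egln3*, also called *phd3*, is the gene of the reporter transgene in the mutants, and whether the transgene bears on its ratio was not tested. The next highest ratio was 4.50 (*gapdhs*).

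A control region of the ChIP-qPCR assay lies next to the *jmjd6* peak, at chr3:61203578-61203686. No peak of either list overlapped it, but the study picked its negative controls among regions without a peak, so this follows from the choice. The control region was 719 bp from the edge of the *jmjd6* peak.

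The main peak at *h3f3d*, the histone variant gene, spanned 1813 bp (chr24:39191424-39193236) with its summit at 39192236. It held 525 tags (interval 481 to 572), or 32.5 tags per 1000000 tags kept. Its fold enrichment was 150, its score 2099 and its FDR 0. By score it ranked 33 of the list and 3 of the 171 *vhl* peaks on chromosome 24. It was the longest of the 3 main peaks and ranked 16 of 5177 by length.

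*h3f3d* was the only one of the 3 loci with flanking peaks inside the window. A peak of 527 bp lay 7060 bp from the main peak towards lower coordinates (chr24:39183838-39184364), with 132 tags (interval 110 to 157), a fold enrichment of 59.1, a score of 478 and an FDR of 0. Another, of 573 bp, lay 31530 bp from it towards higher coordinates (chr24:39224766-39225338), with 33 tags (interval 22.7 to 46.3), a fold enrichment of 23.4, a score of 69.5 and an FDR of 2.65%. They ranked 462 and 3655 of the *vhl* list by score, so the first was well above the middle of the list and the second below it. Which genes lie nearest to these flanking peaks was not analysed here.

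The 3 *h3f3d* peaks spread over 41.5 kb and held 690 tags together, of which the main peak held 76.1%. The main peak held 3.98 times as many tags as the lower flank (exact interval 3.28 to 4.85) and 15.9 times as many as the higher flank (11.2 to 23.4). The study chose the main peak among highly significant peaks, which favours such an excess, so these ratios are a description. Per kb the lower flank came close to the main peak. The main peak held 289.6 tags per kb (interval 265 to 315) and the lower flank 250.5 (interval 210 to 297), a ratio of 1.16 with an interval of 0.954 to 1.41 that includes equal density. The higher flank held 57.6 tags per kb (interval 39.6 to 80.9), below the median of the list, and the ratio of the main peak to it was 5.03 (interval 3.54 to 7.38).

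**Figure D1:**
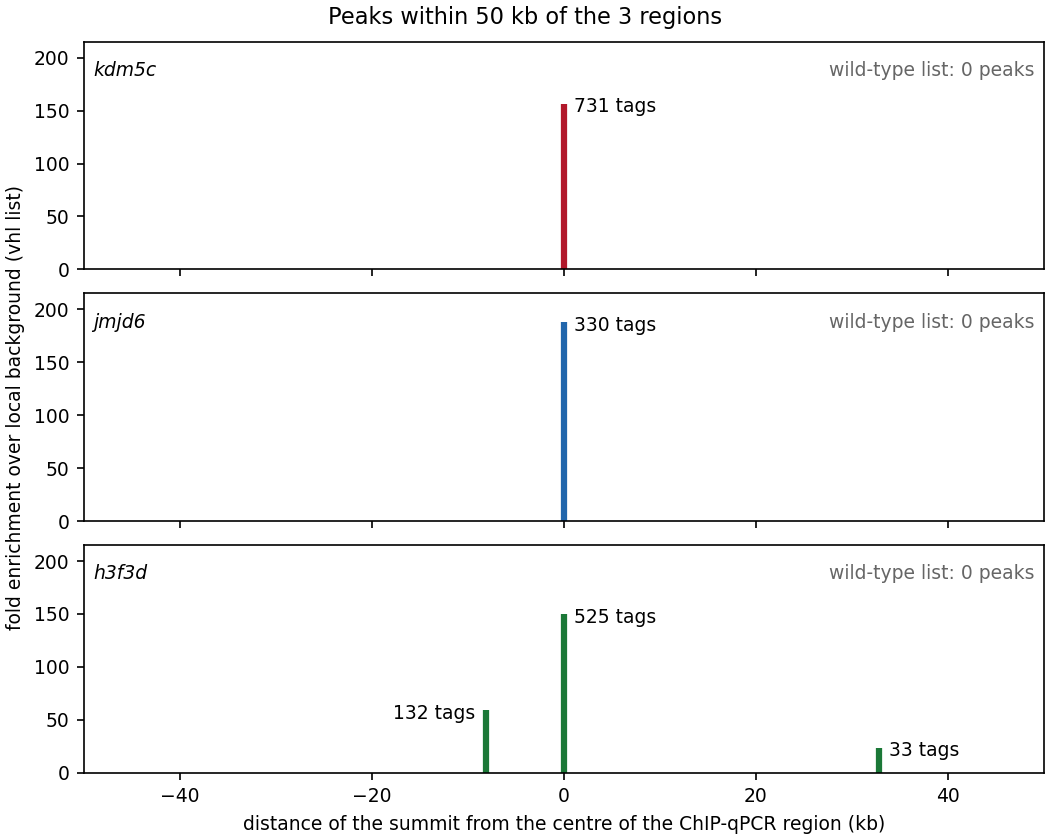
Fold enrichment (y axis) of each *vhl* peak within 50 kb of the 3 ChIP-qPCR regions, at the distance of its summit from the centre of the region in kb (x axis), with the tags of each peak beside its bar. *kdm5c* and *jmjd6* have 1 peak each, with fold enrichments of 156 and 188, and *h3f3d* has 3, and the wild-type list has 0 peaks in every window. The study chose the regions among its *vhl* peaks.

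The order of the 3 main peaks depended on the measure. By tags, *kdm5c* exceeded *h3f3d* 1.39 times (exact interval 1.24 to 1.56) and *h3f3d* exceeded *jmjd6* 1.59 times (1.38 to 1.83). Both steps were larger than counting error as these intervals give it. The intervals do not allow for the limit of 1 tag per position. Per kb of peak the order was the same. The density at *kdm5c* was 2.14 times that at *h3f3d* (1.91 to 2.40), and the density at *h3f3d* was 1.24 times the 233 tags per kb at *jmjd6* (1.08 to 1.43). By fold enrichment the order was *jmjd6*, *kdm5c*, *h3f3d*, with values between 150 and 188. The fold enrichment comes without an error, so this order cannot be set against one.

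**Figure D2:**
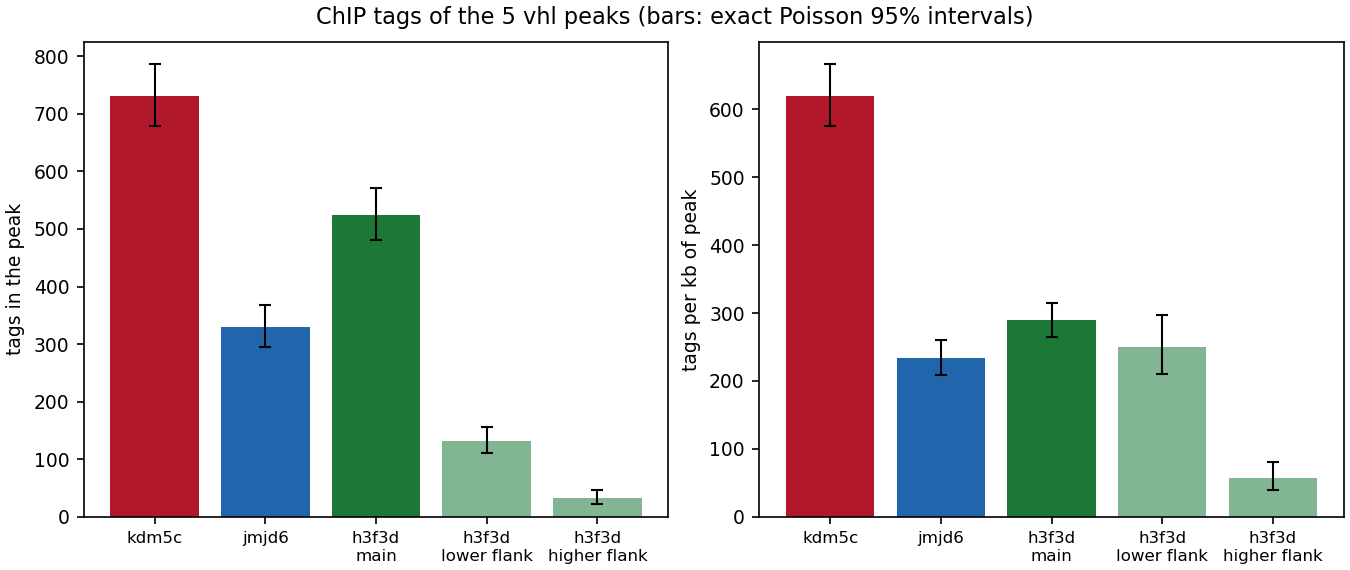
Tags (left) and tags per kb of peak (right) of the 5 *vhl* peaks, with bars for the counts of the single *vhl* ChIP library and error bars for exact Poisson 95% intervals. *kdm5c* is highest in both panels, at 731 tags and 619.5 tags per kb, and the lower flank of *h3f3d* (132 tags) comes close to the main *h3f3d* peak only per kb (250.5 against 289.6).

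All 3 main peaks were long. Their lengths ranked 120 (*kdm5c*), 48 (*jmjd6*) and 16 (*h3f3d*) of the list, whose median was 567 bp. The other ChIP-qPCR regions of the study were similarly long, with a median of 1195 bp, and among all 21 the places by length were 12 (*kdm5c*), 8 (*jmjd6*) and 3 (*h3f3d*). Both *h3f3d* flanks were of ordinary length. The summit of each main peak lay closer to its lower end, at 26.7% of the length for *kdm5c*, 40.1% for *jmjd6* and 44.8% for *h3f3d*, whereas the flanks had their summits at 50.3% and 51.0%. Within the list these positions were at percentile 3.31 for *kdm5c*, 18.8 for *jmjd6* and 30.4 for *h3f3d*, so only that of *kdm5c* was far from the middle. Its summit was 315 bp from the lower end of the peak. The direction of transcription at these loci in Zv9 was not analysed here.

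**Figure D3:**
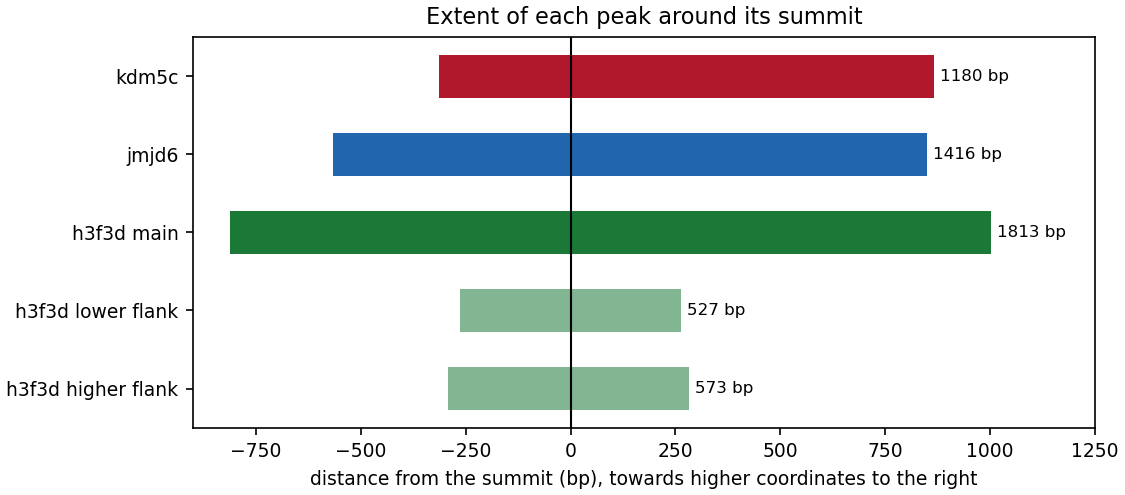
Each of the 5 *vhl* peaks drawn to scale as a bar around its summit, which is at 0 on the x axis (bp, higher coordinates to the right), with its length in bp beside it. The *kdm5c* peak of 1180 bp reaches only 315 bp below its summit, while the *h3f3d* flanks of 527 and 573 bp are nearly symmetrical.

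The main peaks differed in their surroundings. Another *vhl* peak lay within 50 kb of 1 of the 3 main peaks, that of *h3f3d*, against 50.4% of all *vhl* peaks. The nearest other *vhl* peak was 117.6 kb away at *kdm5c* (38 tags, score 85.0) and 78.9 kb away at *jmjd6* (53 tags, score 174), against a median of 49.2 kb over the list. At *kdm5c* the neighbours on either side lay at nearly the same distance, the other being 120.8 kb away (32 tags, score 56.2, FDR 12.9%). At *jmjd6* the next *vhl* peak towards lower coordinates was 827.9 kb away. *h3f3d* had 2 other peaks in its window, and 21.9% of *vhl* peaks had 2 or more others within 50 kb.

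In wild-type embryos, no peak was called at or near any of the loci. A wild-type peak sharing at least 1 bp was present at 0 of the 5 *vhl* peaks and at 2.92% of the whole list, so the absence of an overlap is what most *vhl* peaks show. Overlap was more common among peaks of high score, at 34 of the 104 *vhl* peaks with a score at or above that of *jmjd6* (32.7%). No wild-type peak lay within 50 kb of the 3 regions, while 13.1% of *vhl* peaks had one that near. Within 100 kb there was none either, against 21.1% of *vhl* peaks.

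The nearest wild-type peak was 702 kb from the *kdm5c* peak (6 tags, FDR 48.8%), 488 kb from the *jmjd6* peak (7 tags, FDR 47.8%) and 1579 kb from the main *h3f3d* peak (7 tags, FDR 45.0%), and the median distance over all *vhl* peaks was 318 kb. These peaks were ordinary for the wild-type list, whose median is 7 tags and whose lowest value is 6. Scaled by the tags kept, the *vhl* counts would correspond to 342 tags at *kdm5c*, 154 at *jmjd6* and 246 at *h3f3d* at the depth of the wild-type ChIP library, whose largest peak held 265 tags. The wild-type list names only sites past the threshold of the peak caller, so a locus without a peak has no count in it. From the 2 lists the difference between the genotypes therefore cannot be given as a fold. The study also measured its ChIP-qPCR regions in both genotypes, and those values are not reported here. Genotype and library preparation cannot be told apart with 1 library of each kind.

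The primer list of the study names 18 other target regions for ChIP-qPCR, *egln3* included, each also covered by 1 *vhl* peak, which makes them the closest comparison for the 3 main peaks. *egln3* is less like the rest, standing last of the 21 by score, at 118, with an FDR of 0.19%. Among the 21 regions, *kdm5c* stood second by tags, after *gapdhs* (741 tags), and first by tags per kb, followed by *znf292b* (512 tags per kb). *jmjd6* stood 20 by tags and 20 by tags per kb, and *h3f3d* stood 8 and 17. By fold enrichment *jmjd6* was at place 9, *kdm5c* at 13 and *h3f3d* at 16. All 3 lay within the range of the others (28.6 to 317), of which *egln3* was the lowest and *gapdhs*, at 104, the next. A wild-type peak overlapped 5 of the 18 other peaks (27.8%) and 0 of the 3 main peaks. Another *vhl* peak lay within 50 kb of 13 of the 18 others (72.2%) and of 1 of the 3. With so few regions, chosen by the study, these shares are given side by side without a test.

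**Figure D4:**
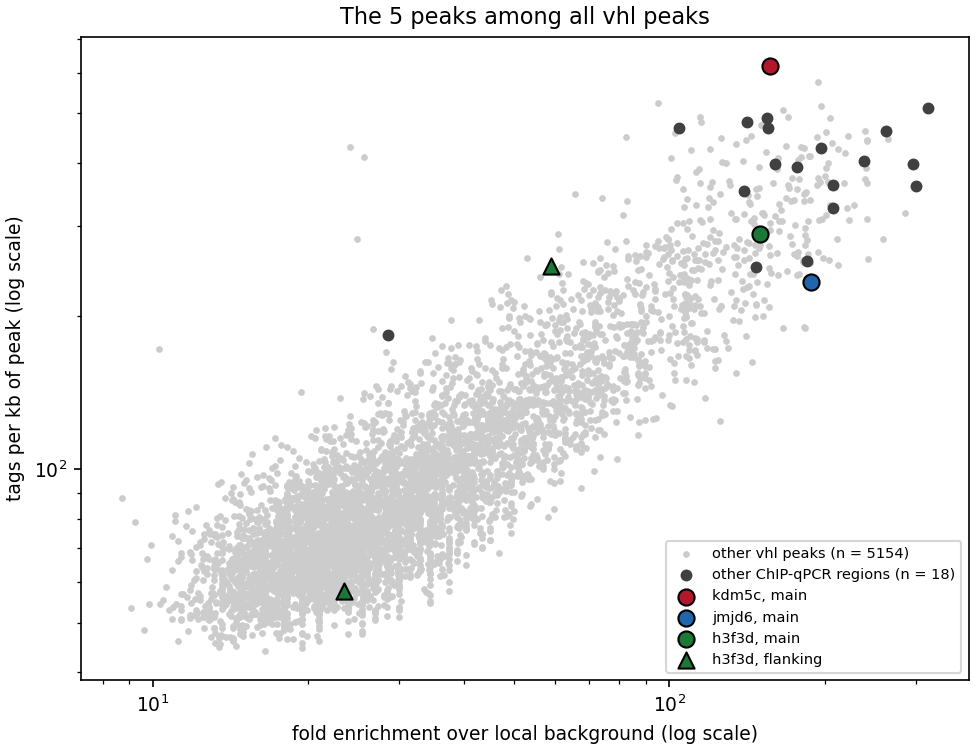
Tags per kb of peak (y axis, log scale) against fold enrichment (x axis, log scale) for all 5177 *vhl* peaks, with the 5 peaks of the loci in colour and the 18 other ChIP-qPCR regions in dark grey. *kdm5c* (619.5 tags per kb) is the highest point, *jmjd6* (233 tags per kb at a fold enrichment of 188) lies at the lower edge of the cloud, and the flanks of *h3f3d* lie at fold enrichments of 59.1 and 23.4.

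The FDR was 0 at 4 of the 5 peaks and 2.65% at the higher flank of *h3f3d*. An FDR of 0 was given to 26.0% of all *vhl* peaks and an FDR of 5% or less to 77.1%.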

How the data were processed

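The authors aligned single reads of 35 bp to Zv9 (danRer7) with CASAVA 1.8.2, kept unique matches, and called peaks with MACS 1.4.2, per the file headers at a p-value of 1e-05, for each ChIP library against the input of its genotype, with 1 tag per position and the larger library scaled to the smaller. The deposited lists give each peak's tags as a raw count, a score, the fold enrichment as a ratio to the local background, an FDR in percent, and the length and summit. The genotypes were not scaled to each other. Kept ChIP tags were 16145214 in *vhl* and 7554444 in wild-type; inputs kept 8584659 and 9102419.

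Regions came from the study's primer table. Peaks within 50 kb were ranked within their list. Counts carry exact Poisson 95% intervals, and ratios of 2 counts exact binomial intervals. Neither kind allows for the limit of 1 tag per position. Alternatives varied the window, threshold, overlap rule, ranking and scaling. Functions were tested on simulated data. The members, rules and alternatives were chosen with earlier results of these data known. The rule named *kdm5c*, *jmjd6*, *h3f3d* and all peaks within 50 kb. The genes *gapdhs*, *znf292b*, *p4ha1b* and *egln3* were named after their values were seen. A planned count of related chromatin genes needed a Zv9 annotation and was not run. The scripts ran under Python 3.11.15 (scipy 1.17.1, pandas 2.3.3, numpy 2.4.6), and plots were drawn with matplotlib 3.10.9.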

Additional observations from a re-analysis of the deposited data

How the results depend on the processing

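The count of 5 *vhl* peaks became 4 with windows of 10 or 25 kb or a score of at least 100, and 7 with a window of 100 kb. With 100 kb *jmjd6* had 2 peaks, since its nearest neighbour then fell inside, and *h3f3d* had 4. No wild-type peak was found under any window, threshold or overlap rule tried. With none within 50 kb, the smaller windows, stricter thresholds and overlap rules could not add any. The window of 100 kb could have added some, and did not. By fold enrichment the main peaks ranked 114 (*kdm5c*), 52 (*jmjd6*) and 130 (*h3f3d*). By tags *kdm5c* ranked 6. By tags per kb *jmjd6* ranked 308 and *h3f3d* 157. As multiples of the list median, tags were 15.6, 7.02 and 11.2 for *kdm5c*, *jmjd6* and *h3f3d*, and tags per kb were 7.52, 2.83 and 3.52, as these peaks are long. No paired analysis was possible because each genotype has 1 ChIP library and no result comes from a test. Wild-type peaks were called from 6 tags upwards and had a median length of 99 bp, far shorter than the main *vhl* peaks. Whether depth or peak calling bears on the lack of wild-type peaks at these loci was not tested.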
